A study of Caenorhabditis elegans with 7 samples.

Results

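Heat shock proteins of the HSP60, HSP70 and HSP90 classes are molecular chaperones that fold, refold and assemble other proteins in the cytosol, the endoplasmic reticulum (ER) and the mitochondria. The set described here holds hsf-1, which encodes the heat shock transcription factor, and 9 chaperone genes, which makes 10 of the 46748 genes in the deposited table of counts. They were chosen by name, and all 10 were found by symbol, the HSP90 gene (also called daf-21) being listed as hsp-90. Transcripts were measured by RNA sequencing in embryos collected before gastrulation, from Caenorhabditis elegans, a nematode. There were 4 libraries from flp-21(ok889) mutants, numbered 11, 22, 29 and 30, and 3 from wildtype (N2 in the titles), numbered 11, 22 and 30, and no treatment is named. The product of flp-21 is a neuropeptide of the FMRFamide-like family, and the title of the series names maternal provisioning in response to social cues, so the comparison asks which chaperone transcripts the embryos of mutant mothers held at other levels.

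In C. elegans most transcripts of a pre-gastrulation embryo are loaded into the oocyte by the mother. HSP70 proteins bind unfolded segments in cycles driven by ATP, with J-domain proteins that deliver substrates and exchange factors that release the nucleotide. HSP90 proteins act on partly folded clients handed over from HSP70, and HSP60 is the barrel-shaped chaperonin of the mitochondrial matrix. HSF-1 drives transcription of cytosolic chaperone genes under heat and also in unstressed growth and development, while the ER and the mitochondria have stress responses of their own.

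Total counts were between 34164612 and 53620276 in each library. The mutated gene flp-21 was counted 1 to 9 times per mutant library and 2 to 24 times per wildtype library, so that the counts do not check the genotype labels. The 17 genes listed as markers of early embryos, among them pos-1, mex-5 and pie-1, were all counted in both genotypes and summed to between 8252 and 10635 CPM (counts in every 1000000, scaled by the trimmed mean of M-values, TMM) in mutants and between 3626 and 8259 CPM in wildtype. Wildtype library 22 stood apart for the 8 of these genes that embryos transcribe themselves: it had 16 counts of pes-10, against 1148 and 1335 for wildtype libraries 11 and 30 and 2412 to 4390 for the mutant libraries, no count of med-1 or med-2, and 2 to 15 counts of end-1, end-3, tbx-37, tbx-38 and ceh-51. Results without this library are therefore given beside the members. Ribosomal RNA took 2.4% to 3.72% of the counts in the mutant libraries, and 6.48%, 3.99% and 13.3% for wildtype libraries 11, 22 and 30, and library 30 had the lowest TMM factor (0.732). The part of stage and of ribosomal RNA in the results was not tested. Transcripts of other tissues were also present and differed by genotype. A list of 40 sperm genes summed to between 72.6 and 199 CPM in mutants and between 8748 and 15719 CPM in wildtype, and 38 of them were lower. The 13 adult intestine genes summed to between 0.925 and 1006 CPM in mutants and between 5883 and 52169 CPM in wildtype, and all 13 were lower. The 13 cuticle and hypodermis genes summed to between 0.828 and 654 CPM in mutants and between 2460 and 23497 CPM in wildtype, with 7 of the 10 tested lower. The 9 body wall muscle genes summed to between 2.46 and 116 CPM and between 1088 and 4472 CPM, and all 9 were lower. Of 8 neuronal genes 3 of the 5 tested were lower, each with all mutant libraries below wildtype, and unc-47 had no count in any mutant library. The list summed to between 177 and 332 CPM in mutants and between 107 and 319 CPM in wildtype. Most of this sum was snb-1, which was not called, at 176 to 330 CPM in mutants and 94.2 to 312 CPM in wildtype. The part of these tissues in the results on chaperones was not tested. Whether these transcripts came from the embryos or from other worm material in the samples was not tested either. Counts from whole samples cannot tell less of such material from less RNA in it. Mutant libraries 22 and 29 were the most alike of all pairs, with a chi-square over genes of 24.5 for each degree of freedom.

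Of the 9 members that passed the filter on low counts, 3 were lower in the mutant embryos, the cytosolic HSP70 gene hsp-1, the cytosolic HSP90 gene hsp-90 and the mitochondrial chaperonin gene hsp-60. The transcription factor gene hsf-1 was higher, and the ER and remaining chaperones did not pass the threshold. In the same test, the quasi-likelihood F-test of edgeR with a threshold of 0.05 on the adjusted p, 29.4% of 13035 genes were lower and 9.01% were higher, so the counts of 3 and 1 among 9 are near the background. Among the 2251 tested genes with a mean over all libraries of at least 100 CPM, 14% were lower and 22.9% were higher. All 9 members reach that mean, but hsp-60, at 26.4 CPM in mutants, and hsf-1, at 91.4 CPM in wildtype, reach it through the other genotype. The median log2 fold change of the members was -0.80, beside -0.21 for all tested genes. Each of the 9 had at least 588 counts in every library, so none passed the filter through 1 genotype alone. The 10th member, hsp-70, stayed under the filter. The libraries of the genotypes did not overlap for 5 members, 4 with all mutant libraries lower and 1 with all higher, where 30.5% and 14.1% of all tested genes did so.

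**Figure D1:**
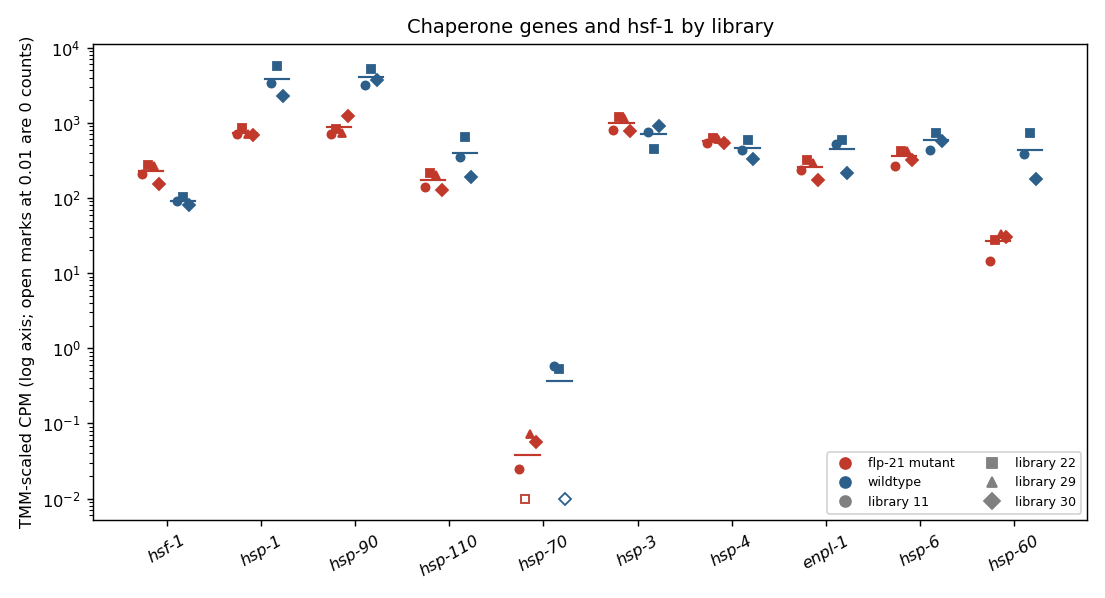
TMM-scaled CPM on a log axis for the 10 genes in each of the 7 libraries, mutant in red and wildtype in blue, with short bars at the group means and marks by library number. The genotypes separate for hsf-1, hsp-1, hsp-90, hsp-6 and hsp-60 and overlap for the others, and hsp-70 lies below 1 CPM everywhere.

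The gene hsf-1 (WBGene00002004, chromosome I from 11953511 to 11961984, minus strand, build WBcel235) was higher in the mutant. Its level was 210, 271, 268 and 153 CPM for mutant libraries 11, 22, 29 and 30 against 90.7, 103 and 80.4 CPM for wildtype libraries 11, 22 and 30. Every mutant library lay above every wildtype library. The means were 225 ± 56.1 CPM (SD, n = 4) and 91.4 ± 11.4 CPM (SD, n = 3), a rise of 2.46-fold (log2 fold change 1.30, SE 0.33, edgeR adjusted p = 0.0116). The early embryo markers had a median log2 fold change of 0.97 in the same fit, and with the libraries scaled to the sum of those markers, a setting chosen after seeing the data, hsf-1 had a log2 fold change of 0.17 (edgeR adjusted p = 0.785). The call was also lost without mutant libraries 22 and 29 (log2 fold change 1.03, edgeR adjusted p = 0.134). Without wildtype library 22 it held, at 1.52 (adjusted p = 0.019).

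In worms HSF-1 is held back by HSB-1, which forms a complex with DDL-1 and DDL-2. None of these 3 genes passed the test. The level of hsb-1 was 99.5 ± 28.7 CPM (SD, n = 4) in mutants and 55.7 ± 11.8 CPM (SD, n = 3) in wildtype, with no overlap of the libraries (log2 fold change 0.84, edgeR adjusted p = 0.0859).

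Among the cytosolic chaperones hsp-1 and hsp-90 were the most abundant transcripts and fell together. The gene hsp-1 (WBGene00002005, chromosome IV from 17278959 to 17281335, plus strand) encodes the constitutive HSP70. It had 710, 852, 707 and 686 CPM for mutant libraries 11, 22, 29 and 30 against 3412, 5766 and 2292 CPM for wildtype libraries 11, 22 and 30. The mutant libraries were close to each other, and the lowest wildtype library stood well above them. The fall was 5.18-fold, from 3823 ± 1773 to 739 ± 76.4 CPM (log2 fold change -2.37, SE 0.39, edgeR adjusted p = 0.00136). Without wildtype library 22 the log2 fold change was -1.83 (adjusted p = 0.00643). With wildtype library 30 as the lone wildtype library it was -1.40, in a fit that holds no spread between wildtype libraries.

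The HSP90 gene hsp-90 (WBGene00000915, chromosome V from 14684918 to 14688543, plus strand) had 704, 831, 730 and 1223 CPM across mutant libraries and 3150, 5216 and 3716 CPM in the wildtype libraries. Mutant library 30 was the highest of its group and still below all of wildtype. The fall was 4.62-fold, from 4027 ± 1068 (SD, n = 3) to 872 ± 240 CPM (SD, n = 4; log2 fold change -2.21, SE 0.36, edgeR adjusted p = 0.00145). Without mutant libraries 22 and 29 the log2 fold change was -2.02 and missed the threshold (edgeR adjusted p = 0.0564). Without wildtype library 22 it was -1.84 (adjusted p = 0.00616). The annotated exons of hsp-90 share 4 bases with C47E8.4 on the other strand, and no strand option was given to the counting.

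The third cytosolic gene, hsp-110 (WBGene00016250, chromosome III), encodes a large HSP70 relative that acts as nucleotide exchange factor. It had 140, 213, 205 and 128 CPM in mutants and 346, 646 and 188 CPM in wildtype. Wildtype library 30 lay within the mutant range. The difference did not pass (log2 fold change -1.2, SE 0.43, edgeR adjusted p = 0.0528), and turned on the wildtype libraries: it passed without library 30 (-1.42, adjusted p = 0.00838), and without library 22 it was -0.54 (adjusted p = 0.324). It also passed with upper quartile scaling (-1.36, adjusted p = 0.0298) and with a filter of 5 CPM (-1.47, adjusted p = 0.0383). Scaled to the early embryo markers it passed too (-2.45, adjusted p = 0.00537), where the median of all tested genes was -1.23. With wildtype library 30 as the lone wildtype library the log2 fold change was 0.09.

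Stress-inducible HSP70 transcripts were scarcely found. The gene hsp-70 (WBGene00002026, chromosome I), which is known for its induction by heat, was counted 1, 0, 4 and 3 times among the mutant libraries, against 26, 18 and 0 times for wildtype libraries 11, 22 and 30. The upper limit for a library with no count is 3 counts. The groups overlapped because wildtype library 30 had none. Other heat-inducible genes were as rare. A list of 8 such genes, of which 6 symbols were matched, had 2 gene entries past the filter and summed to between 0.595 and 1.55 CPM in mutants and between 1.2 and 4.96 CPM in wildtype. The inducible HSP70 gene F44E5.4 had 0.201 ± 0.0892 and 0.629 ± 0.690 CPM (log2 fold change -1.65, edgeR adjusted p = 0.167). It has a near-identical neighbour, F44E5.5, and the hsp-16 genes also come in copies, so that reads were not assigned to 1 copy with certainty.

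No ER chaperone passed the test, and the libraries of the genotypes overlapped for all 3. The genes hsp-3 (WBGene00002007, chromosome X) and hsp-4 (WBGene00002008, chromosome II) both encode BiP, the HSP70 of the ER, and hsp-4 is a classical reporter of the ER unfolded protein response. The level of hsp-3 was 794, 1200, 1164 and 773 CPM in mutants and 748, 453 and 916 CPM in wildtype. Mutant libraries 22 and 29 were high, and the other pair lay within the wildtype range. The log2 fold change was 0.48 (SE 0.37, edgeR adjusted p = 0.342). It passed without wildtype library 30, at 0.83 (adjusted p = 0.0448), and without wildtype library 22 it was 0.37 (adjusted p = 0.412).

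The level of hsp-4 was 532, 624, 601 and 533 CPM in mutants and 438, 596 and 334 CPM in wildtype, and wildtype library 22 lay inside the mutant range. The log2 fold change was 0.33 (SE 0.32, edgeR adjusted p = 0.46), and without wildtype library 22 it was 0.69 (adjusted p = 0.132). With wildtype library 30 alone against the mutant it was 1.00, in a fit that holds no spread between wildtype libraries. Both hsp-3 and hsp-4 had negative log2 fold changes, -0.52 and -0.83, when the libraries were scaled to the early embryo markers, where the median of all tested genes was -1.23. The 2 genes are close paralogs, and reads from stretches they share may have been counted to either.

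The ER HSP90, endoplasmin, is encoded by enpl-1 (WBGene00011480, chromosome IV). It had 233, 320, 296 and 174 CPM in mutants and 528, 591 and 218 CPM in wildtype. Wildtype libraries 11 and 22 were the highest of all, and library 30 fell among the mutant libraries. The difference did not pass (log2 fold change -0.80, SE 0.41, edgeR adjusted p = 0.15). It passed without wildtype library 30 (log2 fold change -1.01, adjusted p = 0.0172). Scaled to the early embryo markers it also passed (-2.06, adjusted p = 0.0102), with the median of all tested genes at -1.23. Without wildtype library 22 it was -0.45 (adjusted p = 0.486). In the fit with wildtype library 30 as the lone wildtype the log2 fold change was 0.46. The annotated exons of enpl-1 share 23 bases with spo-11 on the other strand.

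The mitochondrial pair split. The gene hsp-60 (WBGene00002025, chromosome III from 1619742 to 1625920, plus strand), which encodes the chaperonin, had the steepest change of the tested members. Its level was 14.3, 27.3, 33.5 and 30.5 CPM for mutant libraries 11, 22, 29 and 30 against 383, 742 and 181.4 CPM for wildtype libraries 11, 22 and 30. These levels rest on 588 to 1856 counts per mutant library and 4810 to 25302 per wildtype library. The groups lay far apart, with wildtype library 30 nearest to the mutant. The level fell from 436 ± 284 (SD, n = 3) to 26.4 ± 8.45 CPM (SD, n = 4; log2 fold change -4.04, SE 0.52, edgeR adjusted p = 5.32e-04). Without wildtype library 22, the highest of its group, the log2 fold change was -3.34 (adjusted p = 0.00259). With wildtype library 30 as the lone wildtype it was -2.58, in a fit that holds no spread between wildtype libraries.

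The gene hsp-6 (WBGene00002010, chromosome V) encodes the mitochondrial HSP70. It had 270, 422, 420 and 321 CPM in mutants and 431, 743 and 573 CPM in wildtype. All mutant libraries were lower, although mutant libraries 22 and 29 came close to wildtype library 11. The log2 fold change was -0.70 (SE 0.33, edgeR adjusted p = 0.129). It passed with a filter of 5 CPM (-0.93, adjusted p = 0.0323), and without wildtype library 22 it was -0.35 (adjusted p = 0.405). Scaled to the early embryo markers it passed as well (-1.80, adjusted p = 0.00331), where the median of all tested genes was -1.23. The co-chaperonin that caps the HSP60 barrel is encoded by Y22D7AL.10, which lies beside hsp-60 on the other strand (chromosome III from 1617153 to 1618954). It had 84.4, 69.3, 70.4 and 150 CPM in mutants and 120, 155 and 223 CPM in wildtype, where mutant library 30 fell within the wildtype range (log2 fold change -0.83, SE 0.38, edgeR adjusted p = 0.12).

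**Figure D2:**
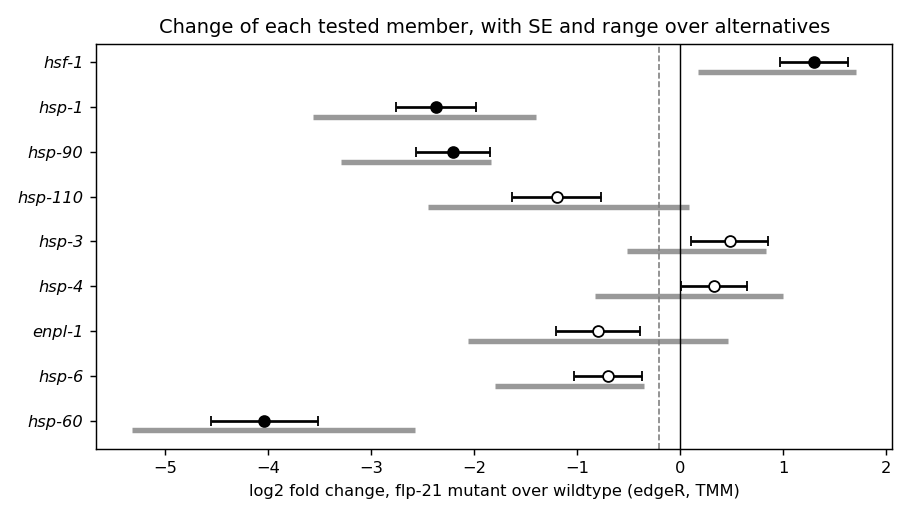
Log2 fold change of mutant over wildtype for the 9 tested members, with bars of 1 SE from the edgeR fit; filled points passed an adjusted p of 0.05, grey bars span the values under all alternatives, and the dashed line is the median of all tested genes. The grey bars of hsp-1, hsp-90, hsp-60 and hsp-6 stay below 0, that of hsf-1 comes down to 0.17, and those of hsp-110, hsp-3, hsp-4 and enpl-1 cross 0.

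In the authors' deposited table, made with DESeq2 and holding 3791 genes with an absolute log2 fold change of at least 1.5, 3 of the members are listed. The log2 fold changes given in the authors' deposited table are -4.05 for hsp-60, -2.35 for hsp-1 and -2.16 for hsp-90, with standard errors of 0.59, 0.47 and 0.41.

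Levels per length, as RPKM (CPM divided by the exon length in kilobases), gave a different order of the genes in each genotype. In wildtype hsp-1, at 1840 ± 853 RPKM, and hsp-90, at 1530 ± 406 RPKM, overlapped each other and stood above all the others. Then came hsp-3 (263 ± 87.4), hsp-6 (238 ± 64), hsp-4 (206 ± 59.5), hsp-60 (194 ± 127), enpl-1 (171 ± 76.5) and hsp-110 (145 ± 86.0 RPKM, SD, n = 3). Neighbours among these 6 overlapped, and hsf-1, at 39.3 ± 4.91 RPKM, lay below them in every library.

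In the mutant hsp-3 was first at 366 ± 86.0 RPKM, with hsp-1 (355 ± 36.7), hsp-90 (331 ± 91.3) and hsp-4 (258 ± 21.4 RPKM, SD, n = 4) behind it. The ranges of neighbours overlapped, although hsp-90 lay above hsp-4 within each mutant library. The next genes were hsp-6 (147 ± 30.9), enpl-1 (97.8 ± 25), hsf-1 (96.9 ± 24.1) and hsp-110 (63.5 ± 16 RPKM). The ranges of neighbours among them overlapped, although within each mutant library hsp-6 lay above enpl-1 and hsf-1 above hsp-110. The chaperonin hsp-60 stood apart below all of these at 11.8 ± 3.77 RPKM. Ranked over all 13035 tested genes by mean RPKM, hsp-1 was 89th in wildtype and 331st in the mutant, hsp-90 112th and 372nd, and hsp-60 758th and 5385th. In the same ranking hsp-3 was 585th in wildtype and 318th in the mutant, and hsf-1 3048th and 1576th.

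The make-up of the chaperone transcripts does not depend on how libraries are scaled to one another. The 9 chaperone genes took between 0.379% and 0.467% of all counts across mutant libraries and 0.987%, 1.47% and 0.616% for wildtype libraries 11, 22 and 30. Of their summed reads per kilobase, the cytosolic genes held 47.1%, 43.7%, 40.8% and 53.2% for mutant libraries 11, 22, 29 and 30 against 74.3%, 79.4% and 74.4% in wildtype. The ER genes held 44.6%, 46.3%, 48.2% and 37.6% in mutants and 17%, 10.5% and 16.6% in wildtype. Neither share overlapped between the genotypes.

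The mitochondrial share overlapped between the genotypes, at 9.63% ± 1.15 (SD, n = 4) in mutants and 9.29% ± 0.722 (SD, n = 3) in wildtype, but its parts differed in opposite ways. The gene hsp-6 held 8.92% ± 1.02 in mutants and 5.33% ± 1.25 in wildtype, and hsp-60 held 0.715% ± 0.199 and 3.96% ± 1.49. The share of hsp-4 was 15.9% ± 0.875 in mutants and 4.52% ± 0.374 in wildtype. These shares sum over genes that were called lower, so a gene that kept its level takes a larger share.

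**Figure D3:**
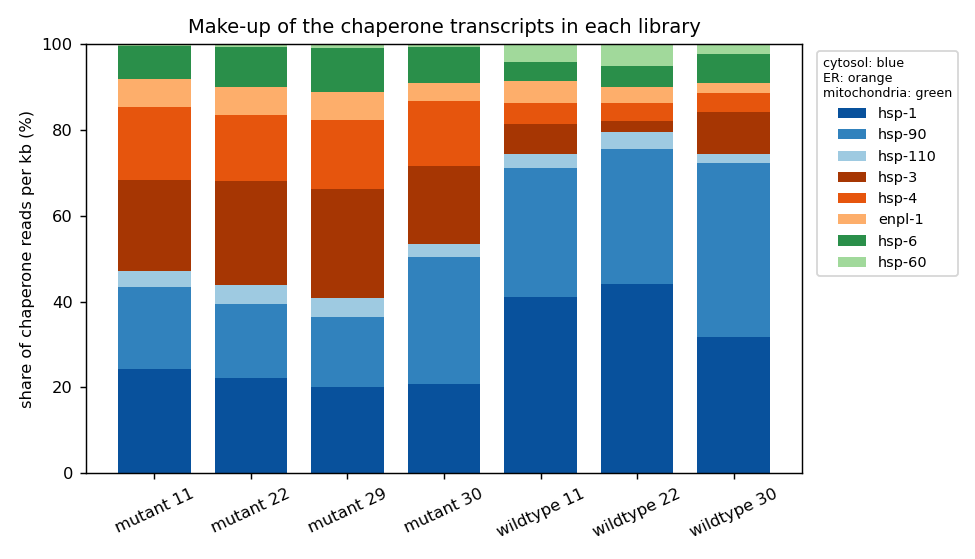
Stacked bars of the share (%) that each chaperone gene held of the summed reads per kilobase in each library, cytosolic genes in blue, ER genes in orange and mitochondrial genes in green; hsp-70, under 0.01% in every library, is not drawn. The blue part ends at 40.8% to 53.2% in the 4 mutant libraries and at 74.3% to 79.4% in the 3 wildtype libraries.

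Ratios of 7 pairs of genes were compared within each library, by reads per kilobase and with a two-sided exact permutation test over all 35 ways to label 4 of the 7 libraries as mutant, whose smallest possible p is 0.0286. For 4 pairs the genotypes did not overlap and p was 0.0286, which adjusted over the 7 pairs is 0.05 and not below the threshold. The mitochondrial ratio of hsp-6 to hsp-60 was 17.3, 14.2, 11.5 and 9.65 across mutant libraries and 1.03, 0.917 and 2.90 in the wildtype libraries (difference of mean log2 ratios 3.20, exact permutation p = 0.0286, adjusted p = 0.05). The ratio of the exchange factor gene hsp-110 to hsp-1 was 0.151, 0.192, 0.223 and 0.144 in mutants and 0.0780, 0.0860 and 0.0630 in wildtype (difference 1.22, with the same p-values). Mutant libraries were higher for both ratios.

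The chaperones were compared with their transcription factor gene in the same way. The ratio of hsp-90 to hsf-1 was 2.97, 2.71, 2.41 and 7.08 in mutants and 30.7, 44.6 and 40.8 in wildtype, and that of hsp-1 to hsf-1 was 3.79, 3.52, 2.95 and 5.03 against 42.1, 62.5 and 31.9. The differences of mean log2 ratios were -3.48 and -3.55. Every mutant library lay below every wildtype library, which the levels already fixed, since hsp-1 and hsp-90 were each lower and hsf-1 higher in all mutant libraries. The p of these 2 ratios therefore adds nothing to those results.

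The other ratios overlapped. The ratio of hsp-90 to hsp-1 was 0.783, 0.770, 0.816 and 1.41 for mutant libraries 11, 22, 29 and 30 against 0.729, 0.714 and 1.28 for wildtype libraries 11, 22 and 30 (difference of mean log2 ratios 0.06, exact permutation p = 0.771, adjusted p = 0.771). The libraries numbered 30 were the highest of both genotypes. The ratio of hsp-3 to hsp-4 ran from 1.2 to 1.6 in mutants and was 1.41, 0.627 and 2.26 in wildtype (difference 0.14, exact permutation p = 0.743, adjusted p = 0.771). The ratio of the ER to the cytosolic HSP90 gene, enpl-1 to hsp-90, was 0.333, 0.387, 0.407 and 0.144 in mutants and 0.169, 0.114 and 0.0590 in wildtype, where mutant library 30 overlapped wildtype (difference 1.5, exact permutation p = 0.0857, adjusted p = 0.12).

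**Figure D4:**
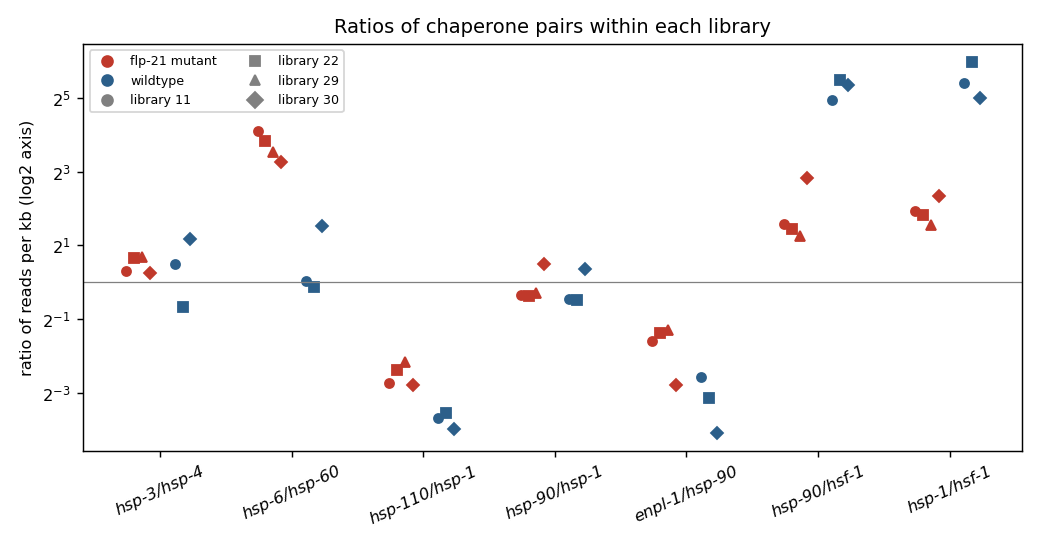
Ratio of reads per kilobase of 7 gene pairs in each library on a log2 axis, mutant in red and wildtype in blue, with marks by library number and a line at 1. The genotypes do not overlap for hsp-6/hsp-60, hsp-110/hsp-1, hsp-90/hsf-1 and hsp-1/hsf-1, and for hsp-90/hsp-1 the libraries numbered 30, at 1.41 and 1.28, are the highest.

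The co-chaperones did not move in 1 direction. Of 11 co-chaperones of HSP90 and HSP70, 2 were higher and 2 lower, with a median log2 fold change of -0.02, where 9.01% and 29.4% of all tested genes were higher and lower. The gene fkb-6, which encodes an immunophilin of the FKBP family that binds HSP90, fell from 280 ± 138 (SD, n = 3) to 92.5 ± 17.8 CPM (SD, n = 4; log2 fold change -1.60, edgeR adjusted p = 0.00931). The HSP70 exchange factor gene bag-1 rose from 59 ± 7.70 to 136 ± 54.5 CPM (log2 fold change 1.21, edgeR adjusted p = 0.032). The other 2 called were chn-1, a ubiquitin ligase gene of the CHIP family, which was higher with overlapping libraries (log2 fold change 1.31), and unc-23, a BAG family gene that was lower with overlapping libraries, stayed under 1 CPM in mutants and passed the filter through wildtype.

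The adaptor between HSP70 and HSP90, sti-1, had 160 ± 28.3 CPM in mutants and 311 ± 135 CPM in wildtype and did not pass (log2 fold change -0.96, edgeR adjusted p = 0.0623). The co-chaperone gene with the highest mean over the 7 libraries was ahsa-1, which encodes the activator of the HSP90 ATPase, at 578 ± 261 and 317 ± 99.5 CPM (log2 fold change 0.87, edgeR adjusted p = 0.132). In wildtype daf-41, at 441 CPM, and sgt-1, at 324 CPM, had higher means.

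Of 29 genes of J-domain proteins, which stimulate HSP70, 5 were higher and 3 lower, and 22 had a positive log2 fold change (median 0.67). Of all 13035 tested genes 9.01% were higher and 29.4% lower, and 5845 had a positive log2 fold change. The median of the early embryo markers was 0.97. Among the 3 lower, dnj-24 stayed under 1 CPM in mutants, with overlapping libraries (0.314 ± 0.129 CPM in mutants and 2.32 ± 1.95 CPM in wildtype). The gene dnj-5 rose from 283 ± 39.9 (SD, n = 3) to 975 ± 254 CPM (SD, n = 4; log2 fold change 1.79, edgeR adjusted p = 0.0035) and had the highest mean over the 7 libraries, although dnj-12 was higher in wildtype, at 340 CPM. The gene dnj-20 fell from 123 ± 39.6 to 35.4 ± 8.06 CPM (log2 fold change -1.79, edgeR adjusted p = 0.00339), and dnj-9 rose from 33.4 ± 1.24 to 72.5 ± 7.44 CPM (log2 fold change 1.12, edgeR adjusted p = 0.0147).

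Of 12 genes of the ER unfolded protein response and ER folding 3 were higher and 0 lower in edgeR (median 0.31), where 9.01% of all tested genes and 22.9% of those with a mean of at least 100 CPM were higher. The 3 were the stress sensor genes ire-1, which rose from 67.7 ± 9.09 (SD, n = 3) to 236 ± 80.5 CPM (SD, n = 4; log2 fold change 1.80, edgeR adjusted p = 0.00502), pek-1, from 16.8 ± 6.11 to 57 ± 24.5 CPM (adjusted p = 0.0179), and atf-6, from 7.26 ± 3.09 to 25.5 ± 9.97 CPM (adjusted p = 0.0191). The transcription factor gene xbp-1, whose mRNA is spliced by IRE-1, had 100.5 ± 13.9 and 168 ± 25.3 CPM, with all mutant libraries lower, and did not pass (log2 fold change -0.74, edgeR adjusted p = 0.0705). Calreticulin, crt-1, was the most abundant, at 1810 ± 442 and 1788 ± 1063 CPM (log2 fold change 0.02, edgeR adjusted p = 0.98).

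Of 10 genes of the mitochondrial unfolded protein response and proteostasis 3 were higher and 0 lower in edgeR, with the same shares over all genes as background. Their median log2 fold change was 1.04, near the 0.97 of the early embryo markers, and the 3 genes encode proteases. The gene spg-7, which had the highest mean of the list over the 7 libraries but in neither genotype alone, rose from 81.6 ± 23.2 (SD, n = 3) to 172 ± 37.4 CPM (SD, n = 4; log2 fold change 1.08, edgeR adjusted p = 0.0309). The genes ymel-1 and lonp-1, the latter with overlapping libraries, rose by log2 fold changes of 1.07 and 1.68 (edgeR adjusted p = 0.0272 and 0.0334). The gene atfs-1, which encodes the transcription factor of this response, was at 93.6 ± 12 and 84.4 ± 20.5 CPM and did not pass (log2 fold change 0.15, edgeR adjusted p = 0.745). The co-chaperone, J-domain, HSF-1 regulator, heat-inducible, ER and mitochondrial lists held 11, 29, 3, 2, 12 and 10 tested genes. Over these 6 lists 13 genes were higher and 5 lower, where 9.01% and 29.4% of all tested genes were. Scaled to the early embryo markers 0 were higher and 16 lower in edgeR, where 12 and 5455 of all 13035 tested genes were.

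The 3 falls stood alongside lists that were higher in the wildtype libraries. Oocyte and eggshell transcripts, 11 genes of which 6 were lower and 1 higher, summed to 3661, 4920, 4721 and 3681 CPM for mutant libraries 11, 22, 29 and 30 against to 10594, 15063 and 7916 CPM for wildtype libraries 11, 22 and 30. Wildtype library 22 was the highest and library 30 the lowest of wildtype for this list, for adult intestine (47110, 52169 and 5883 CPM in libraries 11, 22 and 30) and also for hsp-1 and hsp-60. For hsp-90 library 11 was the lowest, and for sperm transcripts (8748, 13463 and 15719 CPM) library 30 was the highest. The part of these tissues in the 3 falls was not tested.

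Counted per 1000 reads of the 17 early embryo markers, hsp-1 had between 67.9 and 86.0 reads across mutant libraries and 941, 1566 and 278 in the wildtype libraries. On this scale hsp-90 had between 70.1 and 140 reads and 869, 1416 and 450, and hsp-60 between 1.74 and 3.49 reads and 106, 202 and 22. In the edgeR fit scaled to these markers, 5455 of all 13035 tested genes were lower and 12 higher. The share of all genes without overlap on this scale was not computed. The genotypes did not overlap for hsp-1, hsp-90, hsp-60, hsp-6 and hsp-110. They overlapped for hsf-1, at 25.4, 25.5, 25.7 and 17.5 reads in mutants and 25, 28 and 9.73 in wildtype, and for hsp-3, hsp-4, enpl-1 and hsp-70.

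**Figure D5:**
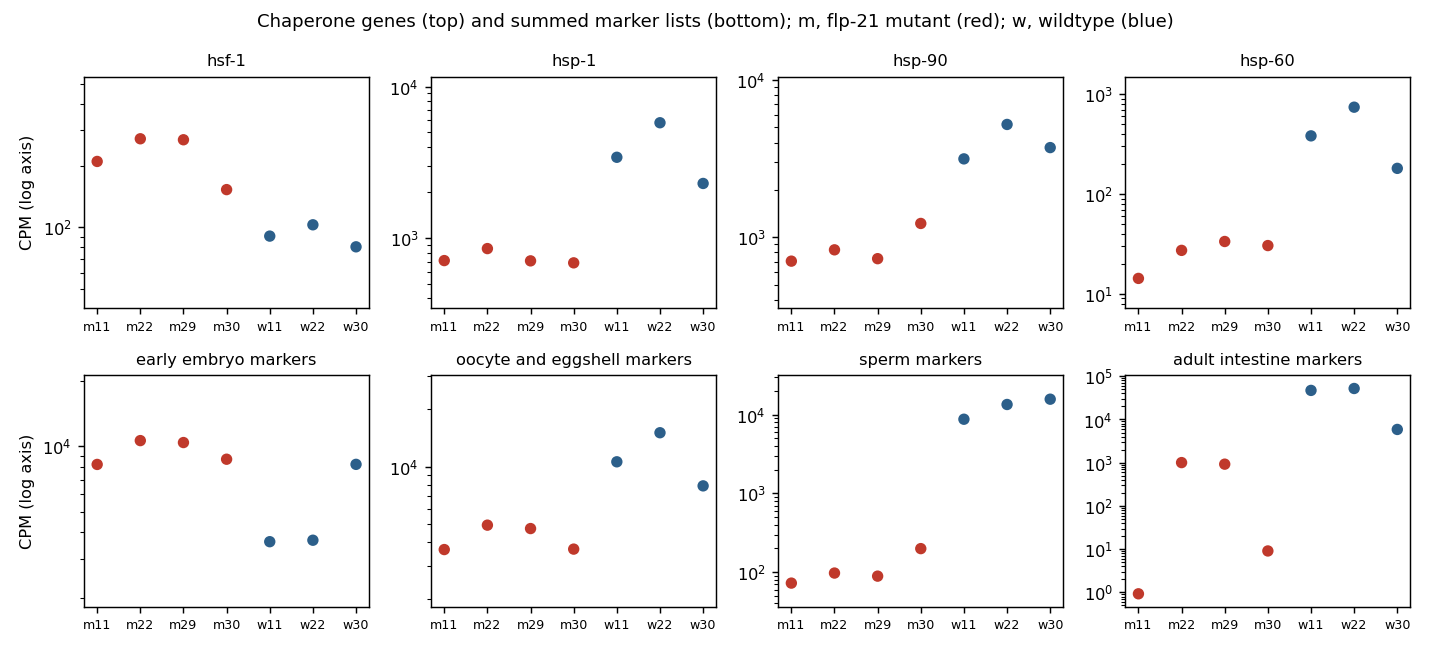
CPM of hsf-1, hsp-1, hsp-90 and hsp-60 (top) and summed CPM of 4 marker lists (bottom) in each library, on log axes that differ between panels, with mutant libraries (m) in red and wildtype libraries (w) in blue. Sperm and adult intestine markers are higher in all wildtype libraries, and wildtype library 30 comes within the mutant range only for the early embryo markers, at 8259 CPM.

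Patterns over the 7 libraries were compared by the root mean square distance between log2 values (with 1 CPM added) centred on each gene's own mean, so that 0 is an identical pattern. Among members the nearest pairs were hsp-110 and enpl-1, at 0.27, and hsp-1 and hsp-90, at 0.38. For hsf-1 and hsp-3 the nearest was hsp-4, at 0.50 and 0.53, and for hsp-6 it was hsp-110, at 0.47. The nearest to hsp-60 was hsp-1, at 0.87, the farthest of all nearest neighbours. Over 7773 other genes with a mean of at least 5 CPM, the 3 nearest to hsf-1 were srrt-1 (0.04), tag-325 (0.06) and plst-1 (0.07). The 3 nearest to hsp-1 were cyp-31A3 (0.11), F36H1.3 (0.16) and T05A7.6 (0.17), and those to hsp-90 were kca-1 (0.10), F42G8.8 (0.13) and F44D12.8 (0.14). Of these, F36H1.3, F42G8.8 and F44D12.8 averaged 1.56, 1.48 and 1.81 CPM in mutants and 10.1, 11.1 and 11.6 CPM in wildtype. They reached 5 CPM through wildtype alone, and at such levels the added 1 CPM shrinks differences. Their fitted log2 fold changes were -2.69, -2.90 and -2.67, beside -2.37 for hsp-1 and -2.21 for hsp-90.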

How the data were processed

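The authors deposited raw counts of reads per gene, made per the file headers with featureCounts 1.6.4 on exons. Its command set nothing for strandedness, multi-mapping or paired ends. Per the submitters' processing notes, the genome build was WBcel235 and the tools included BWA and DESeq2. BWA is not a spliced aligner, and reads that span an intron may be lost. The header lists 1 further alignment, of wildtype, not analysed here. The authors also deposited a DESeq2 table with log2 fold changes, p-values, mean signal (counts over size factors) and a Wald score, whose largest adjusted p is 0.0497. Gene symbols came from a table of gene names and Ensembl release 115, and coordinates are those of the count table.

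Genotypes were compared with the quasi-likelihood F-test of edgeR 4.0.16 (R 4.3.3) with TMM, filterByExpr, robust dispersion and genotype as only term, fitted on all genes, with Benjamini-Hochberg adjustment over the 13035 tested. The common biological coefficient of variation was 0.576. DESeq2 1.42.0, other scalings, filters, a replicate block and left-out libraries were alternatives. One count was worth 0.0186 to 0.0293 CPM by total counts, before TMM scaling. The TMM factors shift this worth in the CPM printed here. Separate cultures are not stated in the labels; every p-value here therefore reflects only how these samples varied, which may be technical. Ranges and limits from counts of 0 cover counting error only.

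The members and lists were chosen with earlier results of these data known. Named were all 10 members, from each pathway list up to 3 called genes, taken by smallest p among those averaging 1 CPM or more, its gene with the highest mean over the 7 libraries, and the 3 genes nearest in pattern to hsf-1, hsp-1 and hsp-90. Outside this rule, chn-1, sti-1, xbp-1, atfs-1, daf-41, sgt-1, dnj-12, dnj-24, snb-1 and Y22D7AL.10 were named after their values were seen. No sequence table was used here.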

Additional observations from a re-analysis of the deposited data

Results flagged for a closer look

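In the 4 mutant libraries, 16 sets of values were examined for a library far from the rest, of which chance flags about 1 in 20. For hsp-1, mutant library 22, at 852 CPM, lay apart from the others (686 to 710 CPM), its gap taking 0.856 of the range of the group. For the ratio of hsp-90 to hsp-1, mutant library 30 lay apart at 1.41 (gap 0.928 of the range), and so it did for the ratio of hsp-90 to hsf-1 at 7.08 (gap 0.880). All 4 mutant libraries stayed below wildtype for hsp-1 and for hsp-90/hsf-1.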

How the results depend on the processing

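The falls of hsp-1, hsp-90 and hsp-60 kept their direction under all 18 alternatives. Apart from the fit with 1 wildtype library, they passed under all but 1, hsp-90 without mutant libraries 22 and 29. Of the members, 3 were lower and 1 higher in the main test, where 29.4% and 9.01% of all tested genes were. With a filter of 5 CPM 5 were lower, where 1679 of all 7747 tested genes were. Scaled to the early embryo markers, an alternative chosen after seeing the data, 6 were lower and 0 higher in edgeR. In that fit hsp-3 and hsp-4 turned to -0.52 and -0.83. There 5455 of all 13035 tested genes were lower and 12 higher. Of all genes called 99.8% were lower, against 76.5% with TMM. Without mutant libraries 22 and 29, 0 members were higher in edgeR, where 339 of all 13994 tested genes were. With wildtype library 30 alone hsp-110 and enpl-1 turned to 0.09 and 0.46. With 1 library left out 3 to 5 members were lower and 1 to 2 higher, the highest counts coming without wildtype library 30. In that fit 4777 of all 14122 tested genes were lower and 2505 higher. The median of all genes was -0.21 with TMM, -0.42 with upper quartile, -0.06 with DESeq2 size factors, 0.01 with library size alone and -1.23 with the embryo markers.

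Of the genes on the 6 pathway lists, 13 were higher and 5 lower, where 9.01% and 29.4% of all tested genes were. Scaled to the embryo markers 0 were higher and 16 lower, where 12 and 5455 of all 13035 tested genes were. With upper quartile scaling 5 list genes were higher, with the filter of 5 CPM 3, and without mutant libraries 22 and 29 4 (2 lower). Of all tested genes 748 of 13035, 536 of 7747 and 339 of 13994 (2953 lower) were higher in these fits. With 1 library left out 4 to 24 list genes were higher, 24 without wildtype library 30, and 3 to 7 lower. Without wildtype library 30, 2505 of all 14122 tested genes were higher and 4777 lower.

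The labels' numbers did not pair the libraries throughout. Deviations from the group means correlated at -0.12, 0.11 and 0.50 for numbers 11, 22 and 30 over 13035 genes. The libraries numbered 30 had the highest correlation of all pairs across genotypes. Wildtype libraries 11 and 22 did not correlate best with their own numbers. With the replicate block, which also leaves out mutant library 29, 1 member was higher and 4 lower (hsp-110 passed, at -1.16, adjusted p = 0.0305). With the block 17 list genes were higher and 2 lower, where 1314 and 2980 of all 12798 tested genes were. Without mutant library 29 and with no block 1 member was higher and 3 lower, and 4 list genes were higher and 3 lower. In that fit 589 of all 12798 tested genes were higher and 3215 lower. With 1 library left out the log2 differences of the ratios ran from -0.15 to 0.34 for hsp-90/hsp-1, -0.36 to 0.57 for hsp-3/hsp-4, 2.89 to 3.72 for hsp-6/hsp-60, 1.09 to 1.32 for hsp-110/hsp-1, 1.09 to 1.84 for enpl-1/hsp-90, -3.83 to -3.31 for hsp-90/hsf-1 and -3.77 to -3.29 for hsp-1/hsf-1, in designs whose smallest p is 0.1 or 0.0667. The cause of these changes was not tested.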
